A study of Homo sapiens with 8 samples.

Results

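A set of 9 genes of the skeletal and mesenchymal lineages was followed across 4 genotypes of U2OS, an established human osteosarcoma cell line. They were picked out of the tables by symbol: the transcription factors RUNX2, SOX9, MSX1, MSX2, DLX5, TWIST1 and PRRX1, and the osteoblast products SPP1 and ALPL. These are 9 of the 19414 genes in each library's table. Of the 9, 6 (RUNX2, SOX9, MSX1, MSX2, PRRX1 and SPP1) were among the 9673 genes kept by the filter on low values and could be tested. ALPL and DLX5 had too few reads and TWIST1 had none. SOX9 RNA was 2.68-fold lower and SPP1 RNA 16.1-fold lower, by its few reads, in cells overexpressing MYC than in WT cells. In cells with the Zab construct RUNX2 was 2.28-fold lower and MSX1 1.58-fold higher than in WT, on calls that ended when single libraries were left out. In cells carrying both constructs SOX9 and SPP1 were higher than with MYC alone, and the SPP1 call ended when any 1 of 3 libraries was left out. MYC RNA was itself lower in the cells with both than with MYC alone.

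The series' title links MYC and the histone chaperone FACT to Z-DNA, a left-handed form of the double helix. Total RNA was sequenced from 8 U2OS libraries, 2 for each genotype given in the labels: WT, with neither factor added; MYC O/E, which overexpressed MYC and is called MYC here; Zab; and Zab + MYC O/E, which carried both and is called Zab+MYC or, beside the single constructs, "with both". Zab stands for Zαβ, in general use the tandem Zα and Zβ domains of the editing enzyme ADAR1, which recognise nucleic acid in the Z form. The labels name no vector, promoter or clone for either construct, and give no treatment or time. They do not say whether the pair of libraries of a genotype stems from separate cultures, and p-values therefore measure no more than the spread within these pairs, which may be technical.

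Osteoblasts arise from mesenchymal progenitors that can also form cartilage or fat. RUNX2 is the transcription factor that commits progenitors to bone and SOX9 the one that commits them to cartilage, while the homeodomain factors MSX1, MSX2, DLX5 and PRRX1 and the basic helix-loop-helix factor TWIST1 pattern skeletal progenitors and hold back or promote their differentiation. SPP1 encodes osteopontin, a phosphoprotein secreted into bone matrix that binds integrins and CD44, and ALPL encodes tissue-nonspecific alkaline phosphatase, which frees phosphate for mineral. Osteosarcomas are bone tumours whose cells keep this programme to a varying degree.

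Each library held 686992 to 1326166 tags in exons, a tag being the unit in which reads were counted, so that 1 tag was worth 0.793 to 1.43 CPM (counts per 1e6 tags, after TMM scaling). MYC and ADAR were highest in the genotypes labelled for them. MYC was 83.7 ± 15.8 CPM in WT, 1263 ± 37.1 with MYC, 212 ± 25.1 with Zab and 706 ± 1.27 with both (SD, n = 2 each). ADAR was 267 ± 3.75, 239 ± 11.8, 6100.5 ± 138 and 1043 ± 34.7 CPM in the same order, and the values do not separate introduced from endogenous transcripts. MYC was thus lower in Zab+MYC than in MYC, and ADAR lower in Zab+MYC than in Zab. MYC was also 2.51-fold higher with Zab alone than in WT (log2 1.33 ± 0.09, limma adjusted p = 1.4e-20). The MYC difference compared in Zab cells was therefore 706 against 212 CPM, beside 1263 against 83.7 without Zab, and its part in the interactions below was not tested. Nor was the part of the lower MYC level in Zab+MYC against MYC, or of the lower ADAR level in Zab+MYC against Zab. The labelled cell type was only partly met by the osteoblast markers. The collagen I chain COL1A1 (1140 CPM) and osteonectin (SPARC, 1848 and 1850 CPM) made up most of the summed osteoblast signal of 2980 to 3072 CPM in WT. COL1A2, the other collagen I chain, had 0 tags in WT, MYC and Zab and 0.5 of a tag in each Zab+MYC library. SP7, the factor downstream of RUNX2, had no tag outside 1 Zab+MYC library. The late marker IBSP had 1 tag in all, and BGLAP (osteocalcin) was between 0 and 2.65 CPM. Summed osteoblast markers were 503 to 523 CPM in MYC, 2084 to 2138 in Zab and 882 to 912 in Zab+MYC. Markers of unrelated cells were scarce: 4 epithelial markers summed to 2.80 to 16.4 CPM, and the muscle, leukocyte, endothelial and erythroid markers to no more than 2.92 CPM each. The 4 chondrocyte markers, among them SOX9, summed to 174 to 200 CPM in WT, 63.0 to 76.1 in MYC, 157 in both Zab libraries and 116 in both Zab+MYC libraries. Nearly all of this was SOX9 itself, the only 1 of the 4 kept by the filter. ACAN, COL2A1 and MATN1 each had at most 3.79 CPM in any library. The 4 adipocyte markers, of which FABP4 and ADIPOQ were at 0, summed to 24.4 to 24.6 CPM in WT, 50.9 to 51.9 in MYC, at least 25.1 in Zab and 37.0 to 39.0 in Zab+MYC. Most of this was PPARG, the only 1 of them kept by the filter, and PLIN1 had at most 2.12 CPM. The part of these cell types in the results was not tested. In bulk RNA, fewer cells of a type and less RNA per cell cannot be told apart.

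Sequence upstream of the annotated start sites was searched for every member with an entry, and is shown for the osteoblast products SPP1 and ALPL and for RUNX2. RefSeq windows of GRCh38.p14 matched 6 of the 9 members, with 9 start sites in all; DLX5, TWIST1 and SOX9 had no entry. In each window the 250 bases before the start were searched on both strands for 6 motifs: CACGTG, the E-box that MYC and MAX bind; CANNTG, the general E-box, of which the former is a case; TGTGGT, the core bound by RUNX factors; TAATTA, a homeodomain core; and the alternating runs CGCGCG and TGTGTGTG, of the kind that can take the Z form. They occurred in 6.34%, 61.8%, 11%, 4.35%, 14.1% and 2.62% of all 35116 RefSeq windows. The windows of 4 starts are shown 5′ to 3′ on the plus strand: SPP1 at chr4:87975464-87975713, the most upstream ALPL start at chr1:21508734-21508983, and the distal and the second RUNX2 starts at chr6:45328080-45328329 and chr6:45422025-45422274. The tables counted RUNX2 from 1 hg19 start in all 8 libraries, and that start was not matched to either window. Capitals mark a match to the MYC-type E-box, the RUNX core or either alternating run on either strand.
SPP1: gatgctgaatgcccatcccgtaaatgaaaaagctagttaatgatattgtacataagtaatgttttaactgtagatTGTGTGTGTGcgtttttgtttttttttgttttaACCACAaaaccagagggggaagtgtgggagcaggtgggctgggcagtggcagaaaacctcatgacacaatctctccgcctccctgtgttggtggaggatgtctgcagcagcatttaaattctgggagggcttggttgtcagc
ALPL: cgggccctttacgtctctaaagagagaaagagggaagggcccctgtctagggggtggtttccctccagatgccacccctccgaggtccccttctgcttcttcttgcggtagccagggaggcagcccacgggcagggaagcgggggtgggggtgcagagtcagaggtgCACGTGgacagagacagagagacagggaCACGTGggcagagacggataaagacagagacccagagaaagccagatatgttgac
RUNX2 distal: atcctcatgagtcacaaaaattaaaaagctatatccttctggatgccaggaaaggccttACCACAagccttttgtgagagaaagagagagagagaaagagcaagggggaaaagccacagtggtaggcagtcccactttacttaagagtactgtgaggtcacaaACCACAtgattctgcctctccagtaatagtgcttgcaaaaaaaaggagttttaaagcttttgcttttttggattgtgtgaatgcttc
RUNX2 second: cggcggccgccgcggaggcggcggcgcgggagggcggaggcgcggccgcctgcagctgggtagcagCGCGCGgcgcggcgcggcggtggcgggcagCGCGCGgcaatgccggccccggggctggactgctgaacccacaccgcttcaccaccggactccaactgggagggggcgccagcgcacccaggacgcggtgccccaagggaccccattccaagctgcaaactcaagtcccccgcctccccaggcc
The SPP1 window held 1 RUNX core, read on the minus strand as ACCACA, 1 general E-box and a TG run in which TGTGTGTG fits in 2 overlapping places. The ALPL window shown held 2 copies of CACGTG and 1 further general E-box. The distal RUNX2 window held 2 RUNX cores on the minus strand and 1 general E-box, and the second held 2 CGCGCG runs and 2 general E-boxes. Of the other ALPL windows 1 held none of the 6 motifs and the other 1 TGTGTGTG, on the minus strand, and 1 general E-box. Of the windows not shown for other members, MSX1 and MSX2 held 1 CGCGCG each, MSX2 also 1 TAATTA, and PRRX1 none of the 6 motifs. A match describes the letters only and says nothing of binding or of DNA form in these cells.

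In the tests, log2 differences were taken on log2(CPM + 2) and fitted with limma over all 8 libraries. A gene was called at a Benjamini-Hochberg adjusted p under 0.05 over the 9673 genes tested, and ± after a log2 value is its SE. The 4 comparisons were MYC and Zab each against WT, and Zab+MYC against each single construct. The interaction is the MYC difference in Zab cells minus the MYC difference without Zab. MYC and Zab share the WT libraries and the Zab+MYC comparisons share theirs, so their values are set side by side and are not independent. An exact permutation test of 2 libraries against 2 cannot go below p = 0.333, so no single-gene permutation test could be called.

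**Figure D1:**
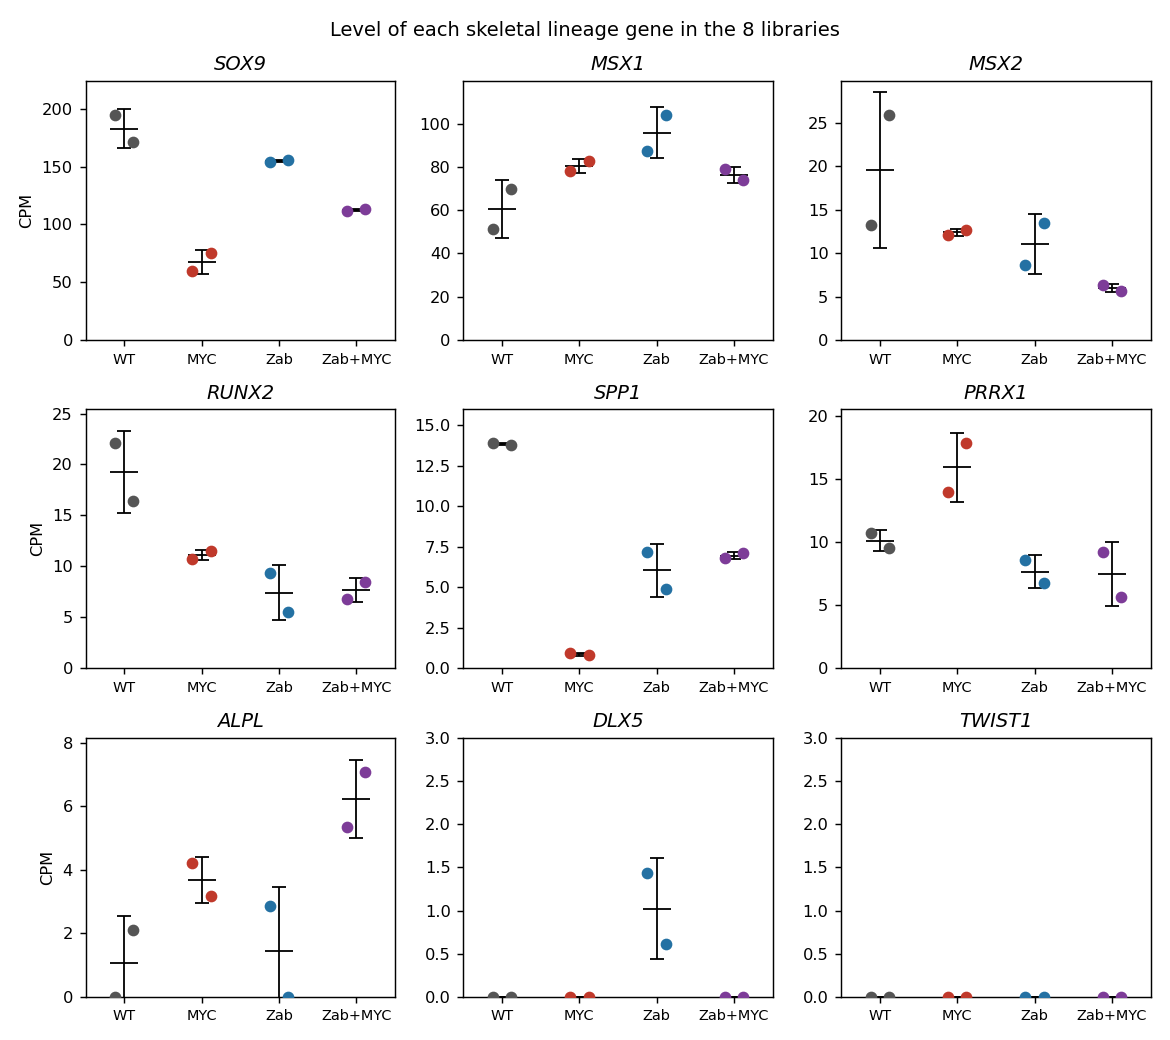
Level of each of the 9 genes, in CPM on a linear axis of its own for each gene, in the WT, MYC, Zab and Zab+MYC groups. Each point is 1 library, and the bars give the group mean and SD of 2 libraries; SOX9 lies between 59.8 and 74.9 CPM in MYC against 171 to 195 in WT, SPP1 is below 1 CPM in MYC, and TWIST1 is at 0 in all 8 libraries.

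SOX9 was the most abundant member in WT and the one with the most tags. The gene was counted over hg19 17:70117161-70122554 on the plus strand. Its level was 195 and 171 CPM in WT, 59.8 and 74.9 with MYC, 154 and 155 with Zab, and 112 and 113 with both. No pair of genotypes overlapped, and the genotypes ran in the order WT, Zab, Zab+MYC, MYC. SOX9 fell 2.68-fold with MYC (log2 -1.42 ± 0.14, limma adjusted p = 1.7e-14). With Zab alone the difference was not called (log2 -0.24 ± 0.14, adjusted p = 0.225, 95% interval -0.51 to 0.04). Between the MYC-carrying genotypes, SOX9 was higher by 1.66-fold in the cells that also had Zab (log2 0.73 ± 0.14, limma adjusted p = 3.4e-05). In Zab cells, added MYC went with a 1.37-fold lower level (log2 -0.45 ± 0.14, limma adjusted p = 0.0097). That last call ended without Zab replicate 2 (adjusted p = 0.0536), Zab+MYC replicate 1 (0.0678) or Zab+MYC replicate 2 (0.061), each at log2 values from -0.46 to -0.43, and with DESeq2 (0.144). The same call ended on the deposited scale (log2 -0.30, limma adjusted p = 0.0978). The MYC difference was thus smaller in size in Zab cells, with an interaction of 0.97 ± 0.20 on the log2 scale (limma adjusted p = 6.9e-05). The MYC level itself also differed less between Zab+MYC and Zab than between MYC and WT, as given above.

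RUNX2, counted over hg19 6:45390012-45518819 on the plus strand, was low in every genotype. It reached 22.1 and 16.4 CPM in WT, 10.7 and 11.5 with MYC, 9.32 and 5.51 with Zab, and 6.81 and 8.51 with both. WT lay above the other 3 genotypes without overlap, while Zab and Zab+MYC overlapped. RUNX2 fell 2.28-fold with Zab (log2 -1.19 ± 0.39, limma adjusted p = 0.017), on 33 tags in WT and 11 in Zab, a tag ratio of 2.62 with a counting interval of 1.29 to 5.74. This call rested on single libraries: it ended without WT replicate 1 (log2 -0.99, adjusted p = 0.193) and without Zab replicate 2 (log2 -0.88, adjusted p = 0.187), and also with no filter on low values (0.0673). With MYC the difference was -0.68 ± 0.39 (limma adjusted p = 0.126, 95% interval -1.46 to 0.09). Zab+MYC differed from MYC by -0.45 ± 0.39 and from Zab by 0.06 ± 0.39, with limma adjusted p = 0.462 and 0.932. The interaction, 0.74 ± 0.55, was not called either (limma adjusted p = 0.341, interval -0.35 to 1.84). CBFB, the partner that RUNX proteins need to bind DNA well, was 26.0 ± 6.05 CPM in WT, 33.0 ± 6.84 with MYC, 17.5 ± 0.377 with Zab and 22.3 ± 1.48 with both (SD, n = 2), and was not called against WT in either single-construct comparison (limma adjusted p = 0.343 and 0.212).

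MSX1 and MSX2 are homologous homeodomain repressors, of which MSX1 was called in both comparisons with WT and MSX2 in none. MSX1 (hg19 4:4861392-4865660, plus strand) was 51.1 and 69.9 CPM in WT, 78.0 and 82.5 with MYC, 87.5 and 104 with Zab, and 78.8 and 73.7 with both. All 6 libraries with a construct lay above both WT libraries, and MYC overlapped Zab+MYC. MSX1 rose 1.33-fold with MYC (log2 0.41 ± 0.17, limma adjusted p = 0.035) and 1.58-fold with Zab (log2 0.66 ± 0.17, limma adjusted p = 0.0025). Neither held under every setting. Without WT replicate 1, the lower of the WT libraries, the MYC difference was 0.21 (adjusted p = 0.395) and the Zab difference 0.45 (0.121). The MYC call also ended without MYC replicate 1 (log2 0.49, adjusted p = 0.0543) or MYC replicate 2 (log2 0.41, adjusted p = 0.115), and the Zab call without Zab replicate 2 (log2 0.55, adjusted p = 0.0525). On the deposited scale, where the median gene was 0.51 lower in Zab than in WT on the log2 scale, MSX1 was 0.13 higher in Zab (limma adjusted p = 0.555). The MYC call ended on that scale too (log2 0.36, limma adjusted p = 0.0673). It also ended with library totals, with DESeq2 and with tags scaled by the length of the transcript counted. DESeq2 ended the Zab call as well. Zab+MYC differed from MYC by -0.07 ± 0.17 and from Zab by -0.32 ± 0.17, neither called (limma adjusted p = 0.824 and 0.173). The interaction of -0.73 ± 0.24 was called (limma adjusted p = 0.018), with means of 60.5 CPM in WT, 80.2 with MYC, 95.8 with Zab and 76.3 with both. It was not called on the deposited scale (log2 -0.52, limma adjusted p = 0.0998) or with DESeq2. That call ended without WT replicate 1 (log2 -0.52, adjusted p = 0.143), MYC replicate 2 (-0.72, 0.053), Zab replicate 2 (-0.63, 0.0817) or Zab+MYC replicate 2 (-0.72, 0.055).

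MSX2 (hg19 5:174151585-174157899, plus strand) was 13.2 and 26.0 CPM in WT, 12.1 and 12.7 with MYC, 8.61 and 13.5 with Zab, and 6.33 and 5.67 with both. Zab+MYC lay below all other libraries, and the wide spread in WT overlapped Zab. No difference was called: -0.52 ± 0.39 with MYC, -0.69 ± 0.39 with Zab, -0.85 ± 0.39 in Zab+MYC against MYC and -0.68 ± 0.39 against Zab on the log2 scale (limma adjusted p = 0.251, 0.2, 0.114 and 0.194). PRRX1, a paired-type homeobox factor of limb and craniofacial mesenchyme (hg19 1:170633272-170708562, plus strand), was 10.7 and 9.54 CPM in WT, 14.0 and 17.8 with MYC, 8.61 and 6.73 with Zab, and 9.25 and 5.67 with both. Both MYC libraries were the highest of the 8 and Zab overlapped Zab+MYC. Its differences were 0.56 ± 0.40 with MYC, -0.33 ± 0.40 with Zab, -0.94 ± 0.40 in Zab+MYC against MYC and -0.05 ± 0.40 against Zab, none called (limma adjusted p = 0.228, 0.6, 0.0853 and 0.946). The intervals of these uncalled differences were wide at this depth, from -0.24 to 1.35 for PRRX1 with MYC and from -1.46 to 0.08 for MSX2 with Zab.

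DLX5 and TWIST1 were at or near the limit of counting. DLX5 (hg19 7:96649710-96654143, minus strand) was listed at 0 in 6 libraries and gave 1.43 and 0.612 CPM in the Zab libraries, which is 1 tag and 0.5 of a tag. TWIST1 (hg19 7:19155091-19157259, minus strand) had 0 tags in all 8 libraries together, which allows up to 0.41 CPM at 3 counts. It was the only member to share exonic bases with another annotated gene, 141 bases with an antisense RNA in GENCODE v29, and whether counting used strand was not given in the sources used here.

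Among the osteoblast products, SPP1 (hg19, chromosome 4, plus strand, ending at 88904563, with starts at 88896802 and 88896866 in the tables) differed most between genotypes. It was counted over 4 transcripts of 1493 to 1799 bases, 1 in each library, and both MYC libraries used another transcript than either WT library. Osteopontin RNA was 13.9 and 13.8 CPM in WT, 0.934 and 0.793 with MYC, 7.17 and 4.90 with Zab, and 6.81 and 7.09 with both. Each MYC library held 1 tag, against 11 and 13 in WT, 5 and 4 with Zab, and 7 and 5 with both. MYC lay below all other genotypes and WT above them, while Zab and Zab+MYC overlapped. By tags SPP1 was 16.1-fold lower in MYC than in WT, with an interval of 4.0 to 141 for counting error only. The fitted difference was -2.47 ± 0.46 on the log2 scale (limma adjusted p = 4.2e-06), and edgeR and DESeq2, which do not add the 2 CPM, gave -3.79 and -3.98. Zab+MYC was 8.07-fold above MYC by tags, with a counting interval of 1.80 to 74.3 (log2 1.64 ± 0.46, limma adjusted p = 0.0064). That call ended without MYC replicate 1 (log2 1.67, adjusted p = 0.0535), MYC replicate 2 (log2 1.60, adjusted p = 0.0633) or Zab+MYC replicate 2 (log2 1.61, adjusted p = 0.0671). With Zab the difference from WT was -0.99 ± 0.46 (limma adjusted p = 0.11, 95% interval -1.91 to -0.07 before adjustment), and Zab+MYC against Zab gave 0.17 ± 0.46 (limma adjusted p = 0.826). The difference between these MYC effects, without and with Zab, was tested as the interaction, and its value of 2.64 ± 0.65 was called (limma adjusted p = 0.0011).

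ALPL (hg19, chromosome 1, plus strand, ending at 21904903, with starts at 21835477, 21835916 and 21877763 in the tables) ran the other way at very low counts. It gave 0 and 2.12 CPM in WT, 4.20 and 3.17 with MYC, 2.87 and 0 with Zab, and 5.35 and 7.09 with both. Both MYC-carrying genotypes lay above WT and Zab without overlap, on 8 and 10 tags against 2 and 2. By tags ALPL was higher with MYC than in WT by 2.98-fold, with a counting interval of 0.595 to 28.8, and 4.37-fold higher in Zab+MYC than in Zab, interval 0.931 to 41.0. Both intervals include 1. With the filter on low values left off, limma gave log2 differences of 1.01 (adjusted p = 0.129) and 1.40 (adjusted p = 0.0733).

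Counted over the members, MYC against WT gave 1 higher (MSX1) and 2 lower (SOX9, SPP1) among the 6 tested, when 58.2% of all genes tested were called, 27.8% higher and 30.4% lower. Zab against WT gave 1 higher (MSX1) and 1 lower (RUNX2), when 24.4% of all genes were called, 13.1% higher and 11.3% lower. In Zab+MYC against MYC, SOX9 and SPP1 were higher, beside 20.0% of all genes called, 11.8% higher and 8.14% lower. Against Zab, SOX9 was lower, beside 26.8% called, 14.3% higher and 12.5% lower. The interaction was called for SPP1, SOX9 and MSX1, beside 27.9% of all genes, 14.6% positive and 13.3% negative. Each count is over 6 genes only, and the filter had kept those, so it is no result about the set. Groups that did not overlap were common too, at 78.8% and 59.0% of all genes for MYC and Zab against WT, and 60.2% and 60.8% for Zab+MYC against MYC and Zab. Of the scaling alternatives the deposited scale moved the Zab comparison most: there 5.0% of the genes called against WT were higher, against 53.8% with TMM scaling, and SOX9 (log2 -0.77, limma adjusted p = 2.8e-06), SPP1 (-1.42, 0.0076) and MSX2 (-1.16, 0.0096) were called lower. For Zab+MYC against MYC the deposited scale gave 16.3% higher among genes called, against 59.3%, and called MSX2 (-1.12, 0.017) and PRRX1 (-1.22, 0.0115) lower.

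**Figure D2:**
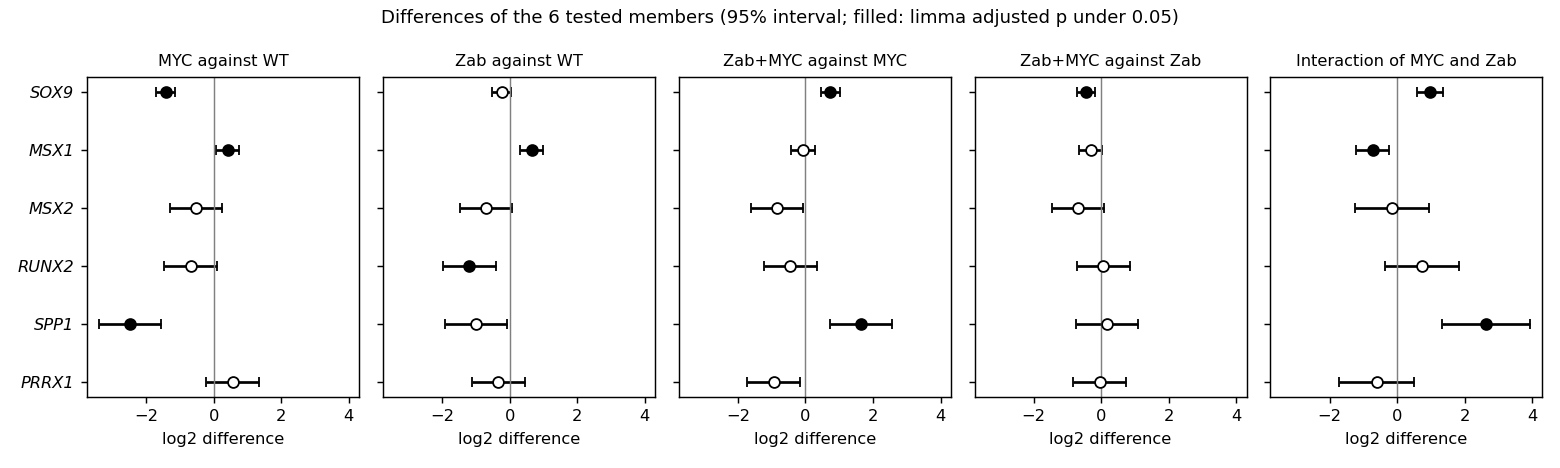
Log2 differences of the 6 tested genes in the 4 comparisons and the interaction, with 95% intervals before adjustment on the horizontal axis; filled points have a limma adjusted p under 0.05. SOX9 (-1.42) and SPP1 (-2.47) lie left of 0 with MYC, RUNX2 (-1.19) with Zab, and SPP1 (2.64) and SOX9 (0.97) right of 0 in the interaction.

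Levels of different genes were compared per transcript length, as CPM per kilobase of transcript. In WT the order was SOX9 (46.7), MSX1 (31.3), SPP1 (9.03), MSX2 (8.87), RUNX2 (3.47), PRRX1 (2.46) and ALPL (0.411), and SPP1 and MSX2 overlapped. There SOX9 stood above 83.4% of all genes kept and RUNX2 above 14.4%. In MYC the order became MSX1 (41.5), SOX9 (17.2), MSX2 (5.63), PRRX1 (3.89), RUNX2 (1.99), ALPL (1.46) and SPP1 (0.558), with no overlap between neighbours. SPP1 thus moved from the third place to the last of the detected members, and MSX1 passed SOX9. In Zab the order was MSX1 (49.5), SOX9 (39.5), MSX2 (5.03), SPP1 (3.90), PRRX1 (1.88), RUNX2 (1.33), DLX5 (0.725) and ALPL (0.557). MSX2 overlapped SPP1 there, and each of the last 4 overlapped its neighbour. In Zab+MYC it was MSX1 (39.4), SOX9 (28.7), SPP1 (4.18), MSX2 (2.72), ALPL (2.46), PRRX1 (1.82) and RUNX2 (1.38), and the neighbours from MSX2 down overlapped. MSX1 and SOX9 stayed the top pair in all 4 genotypes.

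**Figure D3:**
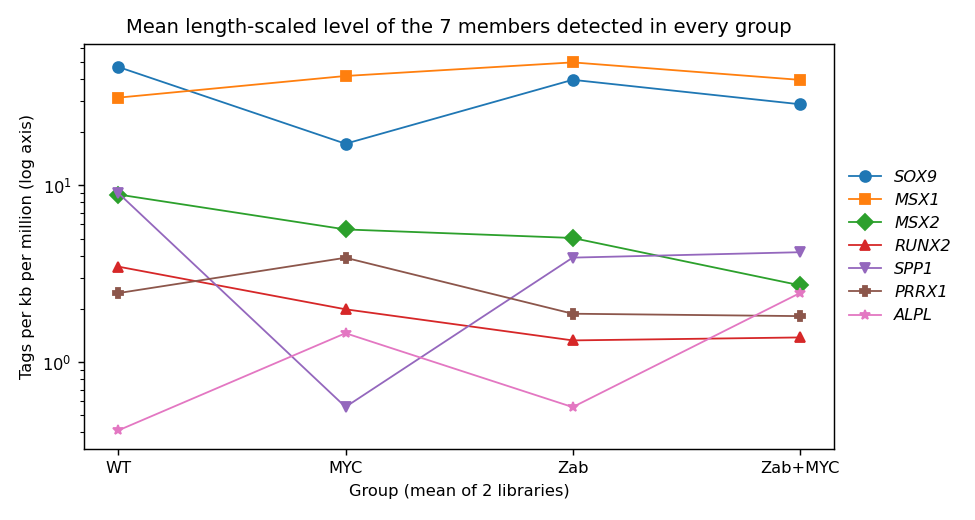
Mean length-scaled level (CPM per kilobase of transcript, log axis) of the 7 genes with tags in every genotype, in WT, MYC, Zab and Zab+MYC, each point the mean of 2 libraries. The SPP1 line drops from 9.03 in WT to 0.558 in MYC, while the SOX9 line falls below the MSX1 line in every genotype but WT.

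For each tested member the genes with the most similar pattern were found as the smallest Euclidean distance between centred log2(CPM + 2) values over the 8 libraries, among all genes kept. SOX9 was nearest to BLVRB (distance 0.169) and STXBP2 (0.244), against 1.55 from a flat profile. BLVRB was 248 CPM in WT, 92.0 with MYC, 213 with Zab and 154 with both. SPP1 was nearest to NES (0.547), the intermediate filament nestin, which was 38 CPM in WT, 4.25 with MYC, 12.7 with Zab and 15.8 with both, and to the WNT receptor FZD2 (0.581). RUNX2 was nearest to CCDC77 (0.462) and TMED8 (0.507), MSX1 to SMPD4 (0.283) and C19orf47 (0.307), MSX2 to EPOR (0.585) and MSANTD3-TMEFF1 (0.681), and PRRX1 to TSKU (0.430) and C3orf62 (0.478). The neighbours were chosen for their likeness out of 9673 genes, so the distances are descriptions.

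Other genes of the same lineages and pathways were read from lists. The filter ran over all 4 genotypes, so a gene high in WT alone could be kept, and MGP below is a case. Such genes tilt the counts and the median of a list towards lower than WT. The counts and medians are therefore no result about a list as a set. Where a call of a list gene ended, only left-out libraries are named here, and other settings are given in the last section. Of 24 further osteoblast and mineralisation genes, 12 were tested, and with MYC 10 were lower and 1 higher, beside 30.4% and 27.8% of all genes, with a list median of -1.50 on the log2 scale against -0.04 over all genes. COL1A1 fell from 1140 to 116 CPM (log2 -3.28 ± 0.08), and the cadherin CDH11 of mesenchymal cells from 21.3 to 2.86 (-2.29 ± 0.38), on 37 and 6 tags (tag ratio 8.28, interval 3.46 to 24.0). MGP, matrix Gla protein, an inhibitor of calcification, fell from 38.2 CPM to 0.864, which is 2 tags, a tag ratio of 44.3 with a counting interval of 11.8 to 374. Limma adjusted p was at most 3.7e-07 for these 3 genes. With Zab 8 of the 12 were lower and 0 higher (median -0.69, against -0.0003 over all genes), at 11.3% of all genes lower. MGP fell to 2.76 CPM on 4 tags (tag ratio 14.4, interval 5.36 to 54.4) and the phosphate transporter SLC20A1 from 213 to 60.3 CPM (log2 -1.79 ± 0.15, limma adjusted p = 6.6e-17). Podoplanin, PDPN, fell from 43.6 to 20.7 CPM (limma adjusted p = 0.007), a call that ended without WT replicate 1 (log2 -0.75, adjusted p = 0.173) or Zab replicate 2 (-0.83, 0.076). In Zab+MYC against MYC, 5 of the 12 were higher and 1 lower, beside 11.8% and 8.14% of all genes. COL1A1 was 225 CPM in Zab+MYC, and among the genes with the largest differences CDH11 reached 10.6 CPM (log2 1.39 ± 0.38, limma adjusted p = 0.005) and the procollagen protease BMP1 25.3 against 11.5 CPM (0.98 ± 0.28, 0.0067). The CDH11 call ended without MYC replicate 2 (log2 1.11, adjusted p = 0.104) or Zab+MYC replicate 2 (1.21, 0.0861), and the BMP1 call without MYC replicate 1 (0.87, 0.0682) or Zab+MYC replicate 1 (0.67, 0.18). The interaction was called as positive for 7 of the 12 and negative for 0, beside 14.6% and 13.3% of all genes, with COL1A1 at 1.46 (limma adjusted p = 1.1e-17). In the lists below it was called positive and negative for 5 and 2 of 15 BMP genes and 7 and 2 of 18 WNT genes. Of 17 other skeletal transcription factors it was 2 and 2, and of 6 osteopontin receptors 1 and 1. Of 3 cartilage matrix genes it was 2 and 0, and of 3 adipocyte genes 1 and 0.

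In the BMP pathway, which induces RUNX2, MSX2 and DLX5 in bone progenitors, 15 of 20 genes were tested. With MYC 8 were lower and 2 higher (list median -0.77), when 30.4% of all genes were lower and 27.8% higher. The 2 higher were ligands, BMP6 from 121 to 251 CPM (log2 1.05 ± 0.13) and BMP2 from 21.7 to 56.9 (1.31 ± 0.25). Their limma adjusted p was 7.8e-11 and 7.0e-06. The ligand BMP4 fell from 87.7 to 10.6 CPM (log2 -2.84 ± 0.25), the ligand antagonist CHRD from 17.9 to 1.46 (-2.53 ± 0.47) and the inhibitory SMAD6 from 29.4 to 4.15 (-2.36 ± 0.43), with limma adjusted p from 5.0e-16 to 4.1e-06. On 32 and 4 tags, the CHRD tag ratio was 10.7 with a counting interval of 3.81 to 41.8. With Zab 6 were lower and 1 higher (median -0.29), beside 11.3% and 13.1% of all genes: BMP4 fell to 33.8 CPM (-1.32 ± 0.25), SMAD6 to 5.41 on 8 tags (-2.16 ± 0.43, tag ratio 5.45, interval 2.56 to 13.3), and the pseudoreceptor BAMBI from 15.0 to 4.29 (-1.43 ± 0.42, limma adjusted p = 0.0074). The BAMBI call ended without either WT library (log2 -1.41 and -1.44, adjusted p = 0.0725 and 0.0588). Against MYC alone, Zab+MYC had 3 genes higher and 2 lower (11.8% and 8.14% of all genes). BMP4 was 2.73-fold higher at 32.4 CPM (limma adjusted p = 8.3e-06), and the receptor ACVR1 13.4 against 5.49 CPM (log2 1.07 ± 0.37, 0.028). The ACVR1 call ended without MYC replicate 2 (0.75, 0.301), Zab+MYC replicate 1 (1.12, 0.094) or Zab+MYC replicate 2 (0.97, 0.176).

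Of the WNT pathway, which also drives osteoblast formation, 18 of 26 genes were tested, and with MYC 9 were lower and 4 higher (list median -0.73), beside 30.4% and 27.8% of all genes. The receptor FZD2 fell from 98 to 16.7 CPM (log2 -2.41 ± 0.21) and the secreted DKK3 from 241 to 27.4 (-3.06 ± 0.16). WNT10B, a ligand known to favour bone over fat, had 0 tags in WT and reached 13.9 CPM in MYC, at least 7.94-fold higher against a floor of 3 counts over the WT group. With Zab 9 were lower and 1 higher (median -0.49), beside 11.3% and 13.1% of all genes. NKD1, an inhibitor of the pathway, fell from 46.2 to 6.79 CPM (-2.48 ± 0.37, limma adjusted p = 1.0e-07). LEF1, a DNA-binding partner of beta-catenin, fell from 36.7 to 13.0 CPM and AXIN2, a scaffold of the beta-catenin destruction complex, from 12 to 3.37, by 2.84-fold and 3.35-fold (limma adjusted p = 0.00022 and 0.013). Both folds rested on the Zab libraries: without Zab replicate 1 they were 1.78 and 1.60 (adjusted p = 0.0819 and 0.52), without Zab replicate 2 they were 4.49 and 6.93, and the AXIN2 call also ended without WT replicate 1 (log2 -1.80, adjusted p = 0.0913). Zab+MYC against MYC had 3 higher and 3 lower (11.8% and 8.14% of all genes), with FZD2 3.37-fold and DKK3 2.78-fold higher (limma adjusted p = 3.8e-10 and 1.1e-11).

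Of 30 other skeletal transcription factors and partners, 17 were tested. With MYC 5 were lower and 2 higher, beside 30.4% and 27.8% of all genes, with a list median of -0.02 against -0.04. SOX6, a partner of SOX9 in cartilage, fell from 19.7 CPM to 0.793, which is 2 tags (tag ratio 22.8, interval 5.85 to 196). GLI3, a mediator of hedgehog signalling, fell from 180 to 55.5 CPM (-1.66 ± 0.16) and TCF4, an E-protein partner of TWIST1, from 75.5 to 28.5 (-1.34 ± 0.24), with limma adjusted p of 1.1e-14 and 1.3e-06. With Zab 4 were lower and 1 higher (11.3% and 13.1% of all genes). Another E protein, TCF3, fell from 120 to 75.0 CPM (-0.69 ± 0.15, limma adjusted p = 0.00019). TCF4 fell to 40.9 CPM (-0.90 ± 0.24, 0.0024) and SNAI1, a repressor of epithelial genes, from 18.6 to 6.69 (-1.29 ± 0.36, 0.0046). Both calls ended without WT replicate 1 (TCF4 log2 -0.75, adjusted p = 0.0723; SNAI1 -0.90, 0.173), the TCF4 call also without Zab replicate 2 (-0.49, 0.207) and the SNAI1 call without Zab replicate 1 (-0.75, 0.181). Between the MYC-carrying genotypes 1 was higher in Zab+MYC and 1 lower (11.8% and 8.14% of all genes). These were RUNX1, 77.6 against 49.1 CPM (0.64 ± 0.17, limma adjusted p = 0.0036), and ATF4, 549 against 627 (-0.19 ± 0.07, 0.045). The RUNX1 call ended without MYC replicate 1 (0.45, 0.164) or Zab+MYC replicate 2 (0.47, 0.152), and the ATF4 call without MYC replicate 2 (-0.17, 0.242) or Zab+MYC replicate 1 (-0.19, 0.118).

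Of 8 genes for osteopontin receptors, 6 were tested. With MYC 4 were lower and 2 higher, in a comparison where 58.2% of all genes were called. The integrin chains ITGB5 and ITGAV fell from 501 to 176 CPM (-1.51 ± 0.10) and from 56.1 to 23.4 (-1.20 ± 0.28), while ITGA4 rose from 4.18 to 20.6 (1.92 ± 0.41), with limma adjusted p at most 0.00015. With Zab 3 were lower and 1 higher, beside 11.3% and 13.1% of all genes: CD44 rose from 77.7 to 178 CPM (1.17 ± 0.14, limma adjusted p = 9.8e-11) and ITGB5 fell to 330 (-0.60 ± 0.10, 6.5e-07). ITGAV was 28 CPM (-0.99 ± 0.28, limma adjusted p = 0.0045), a call that ended without WT replicate 1 (-0.82, 0.0978) or Zab replicate 2 (-0.62, 0.171). Zab+MYC had 2 higher and 0 lower than MYC (11.8% and 8.14% of all genes), CD44 by 0.50 ± 0.14 and ITGB5 by 0.47 ± 0.10 (limma adjusted p = 0.0049 and 0.00014). The CD44 call ended without MYC replicate 1 (0.43, 0.105), Zab+MYC replicate 1 (0.47, 0.0551) or Zab+MYC replicate 2 (0.46, 0.0715), and the ITGB5 call without MYC replicate 1 (0.25, 0.148).

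Of 13 cartilage matrix genes, several of them known targets of SOX9, only 3 were tested, and all 3 were lower with MYC, as were 30.4% of all genes. HAPLN1, the link protein, fell from 238 to 9.64 CPM (-4.40 ± 0.22), COL9A2 from 50.8 to 7.23 (-2.50 ± 0.32) and COL11A1 from 47.6 to 10.8 (-1.93 ± 0.30), with limma adjusted p from 6.6e-29 to 4.6e-08. With Zab HAPLN1 was 88.3 CPM (-1.41 ± 0.22, limma adjusted p = 3.8e-07) and COL9A2 26.8 (-0.87 ± 0.32, 0.039). The COL9A2 call ended when any of the 4 libraries compared was left out (log2 from -1.11 to -0.61, adjusted p from 0.051 to 0.348). HAPLN1 was 24.0 CPM in Zab+MYC, 2.26-fold above MYC (limma adjusted p = 2.9e-05). All 3 were called lower in Zab+MYC than in Zab, beside 12.5% of all genes lower and 14.3% higher. There the osteoblast list had 3 lower and 1 higher, the BMP list 1 and 1, and the WNT list 2 and 3. The other skeletal transcription factors had 3 lower and 2 higher, the osteopontin receptors 3 and 0, and the adipocyte genes 0 and 0. SOX9 was itself lower with MYC, and its part in the levels of the cartilage matrix genes was not tested. Of 10 adipocyte genes 3 were tested. PPARG, the factor that commits progenitors to fat, rose from 23.4 to 51.0 CPM with MYC (1.06 ± 0.25, limma adjusted p = 0.00018), while CEBPB fell from 224 to 117 CPM with MYC and to 135 with Zab (-0.93 ± 0.13 and -0.73 ± 0.13, limma adjusted p = 2.5e-09 and 5.3e-06). FABP4 and ADIPOQ, products of mature fat cells, were at 0. No muscle, epithelial, blood or endothelial gene of the lists passed the filter.

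**Figure D4:**
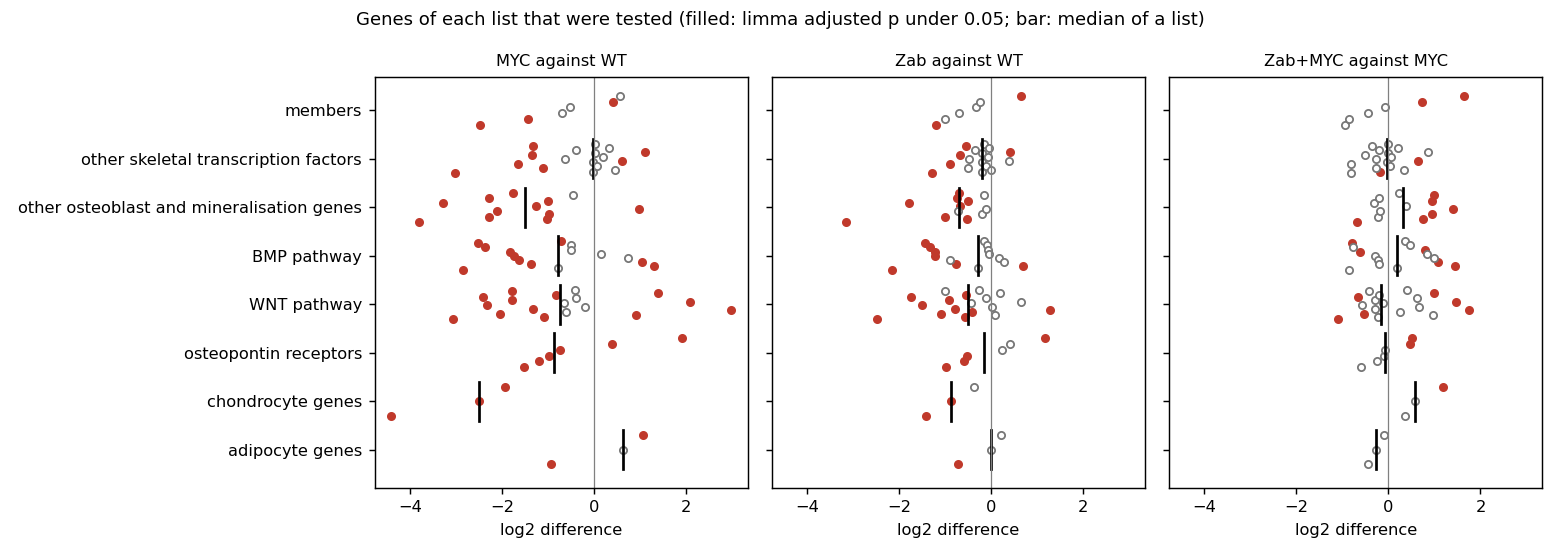
Log2 differences of every tested gene of the 9-gene set (top row, called members) and of 7 further lists, 1 point a gene, in MYC against WT, Zab against WT and Zab+MYC against MYC; filled points have a limma adjusted p under 0.05 and a bar marks the median of each further list. The osteoblast and mineralisation list has its median at -1.50 with MYC and -0.69 with Zab, and the skeletal transcription factors at -0.02 with MYC.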

How the data were processed

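The authors deposited 1 table per library with an exon signal for each of 19414 genes. The submitters' processing notes name STAR (version not given in the sources used here), Trim Galore 0.6.6, HOMER 4.11.1, and the builds dm6 and hg19. HOMER counted raw tags in exons of hg19 RefSeq genes and kept 1 transcript per symbol, per the file headers. For 50.6% of genes that transcript differed between libraries.

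In every library 100% of the deposited signal values were whole multiples of 1 step, within 0.1 step. Tags were recovered by taking 2 steps as 1 tag, an assumption: at 1 step, exon tags would exceed the header's tag total. At 2 steps 26.4% to 31.9% of the values per library end in 0.5 of a tag, and tags were rounded for edgeR and DESeq2, and group sums of tags for counting intervals. Deposited values summed to 406421 and 408060 in the WT libraries and to 285956 and 287979 in the Zab libraries. The authors' scaling factor, 0.315 to 0.537 deposited units per tag, has an origin not given in the sources used here. The column headers contain the word spikein, and the notes name the fly build dm6. Neither says whether the factor came from a spike-in, and this was not tested. Deposited values were therefore tested as an alternative only. Tags were scaled with TMM, filtered with filterByExpr (9673 genes) and fitted as log2(CPM + 2) with limma (trend, 1 mean per group, 4 residual degrees of freedom, two-sided, Benjamini-Hochberg). This scale understates changes of low genes. Very small p-values rest on a spread pooled over genes. Beside some differences that rest on few tags, tag ratios with exact 95% counting intervals are given. Intervals and floors (3 counts over a group) cover counting error only, as no molecular identifiers mark the reads as separate molecules.

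All 9 members are named. From each further list the text names the 3 called genes with the largest difference in MYC and in Zab against WT and the 2 largest in Zab+MYC against MYC, and CBFB, SP7, BGLAP, IBSP and COL1A1 always. BMP2 and BMP6 were named in addition, as the BMP genes called higher with MYC. The members and lists were chosen with earlier results of these data known. Alternatives were RLE factors, library totals, the deposited scale, pseudocounts of 1 and 5 CPM, no filter, 5 CPM in 2 libraries, edgeR and DESeq2 on rounded tags, only the groups compared, a replicate block, and each library left out. Scaling tags by the length of the transcript counted was added after seeing the data. Gene positions are hg19 as deposited, and exon overlaps are from GENCODE v29. The fits were tried on simulated data with known changes in MYC against WT only. The simulated dispersion, the spread beyond counting error, was set higher than the edgeR common dispersion of the real libraries, 0.000172. The simulation therefore does not show how the tests behave at the spread of these pairs. Fits were run in R 4.3.3 with edgeR 4.0.16, DESeq2 1.42.0 and limma 3.58.1, and tables and plots made in Python 3.11.15 with pandas 2.3.3, numpy 2.4.6, matplotlib 3.10.9 and scipy 1.17.1.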

Additional observations from a re-analysis of the deposited data

Results flagged for a closer look

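The difference between MYC-overexpressing and other cells itself differed with and without Zab for 3 of the 6 members tested. These calls are from the limma interaction over all 8 libraries. For SPP1 the log2 difference of differences was 2.64 (adjusted p = 0.0011): MYC against WT gave -2.47 and Zab+MYC against Zab 0.17. For SOX9 it was 0.969 (adjusted p = 6.9e-05), from -1.42 without Zab and -0.45 with it. For MSX1 it was -0.728 (adjusted p = 0.018), from 0.41 without Zab and -0.32 with it, and this call ended when WT replicate 1, MYC replicate 2, Zab replicate 2 or Zab+MYC replicate 2 was left out (adjusted p from 0.053 to 0.143). The MSX1 interaction was also not called on the deposited scale or with DESeq2. Over all genes tested, 27.9% had a called interaction.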

How the results depend on the processing

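The MYC against WT calls of SOX9 and SPP1, the Zab+MYC against MYC call of SOX9 and the interactions of SOX9 and SPP1 were kept under every alternative that gave an adjusted p. Over the members, 216 of the values with a library left out kept direction and side of the threshold, 17 lost a call and 7 turned sign. Of the values from the other alternatives 313 kept both, 11 lost a call, 5 gained a call and 3 turned sign. Those kept include uncalled differences that stayed uncalled. The number of members called in Zab against WT (2) was 4 on the deposited scale, 1 with no filter, 0 with DESeq2, and 0 to 2 with a library left out. For Zab+MYC against MYC (2) it was 4 on the deposited scale, 1 with DESeq2, 1 with only the groups compared, where SPP1 was not kept, and 1 to 2 with a library left out. For Zab+MYC against Zab (1) it was 0 on the deposited scale and with DESeq2, and 0 to 1 with a library left out. For the interaction (3) DESeq2 gave 1. DESeq2 gave an adjusted p for 2 members in these comparisons and none for RUNX2 or SPP1 there. Among the list genes named, DESeq2 ended the Zab against WT calls of PDPN, TCF4, SNAI1, ITGAV and COL9A2. In Zab+MYC against MYC it ended those of BMP1, RUNX1, ATF4 and CD44, and the deposited scale those of ACVR1, CD44, ITGB5 and RUNX1. With no filter AXIN2, SNAI1, COL9A2, ACVR1 and ATF4 lost their calls. So did ACVR1 with edgeR, ATF4 with library totals, and COL9A2 and ATF4 with tags scaled by transcript length.

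Small uncalled differences turned sign. In Zab+MYC against Zab, RUNX2 ran from -0.23 to 0.36 with a library left out, below 0 without Zab replicate 2 or Zab+MYC replicate 2. SPP1 ran from -0.030 to 0.38, below 0 without Zab replicate 2. PRRX1 ran from -0.32 to 0.23, above 0 without Zab replicate 1 or Zab+MYC replicate 2, and was 0.070 on the deposited scale and 0.028 with edgeR. The MSX2 interaction ran from -0.60 to 0.26, above 0 without WT replicate 1 or Zab replicate 2, and was 0.039 on the deposited scale. The causes were not tested.

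With the replicate block the members called were 3, 2, 2, 1 and 3, as without it, and the genes called over the table were 5650, 2434, 2010, 2657 and 2756 against 5633, 2363, 1933, 2592 and 2695. Same-numbered libraries correlated by -0.0226 to 0.0143 over genes, so the numbers were not taken as a pairing.

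Over all genes, Zab against WT called 2363, but 5018 on the deposited scale and 886 with DESeq2. Zab+MYC against MYC called 1933, but 3522 on the deposited scale, 709 with DESeq2, and 1178, 1208 and 1136 without MYC replicate 1, MYC replicate 2 and Zab+MYC replicate 2. Zab+MYC against Zab called 2592, but 925 with DESeq2 and 1712 without Zab+MYC replicate 2, and the interaction 2695, but 1141 with DESeq2. On the deposited scale the median gene lay at -0.51 for Zab and -0.09 for MYC against WT, at -0.31 and 0.14 for Zab+MYC against MYC and Zab, and at 0.22 for the interaction, and with library totals at -0.16 in MYC against WT and 0.11 in the interaction. The share of higher calls rose with the deposited scale to 73.4% in Zab+MYC against Zab (from 53.4%) and 71.3% in the interaction (from 52.2%), and with library totals to 70.1% in Zab+MYC against MYC (from 59.3%). Depth limits the low members: at 1.43 CPM or less for 1 tag, ALPL, DLX5 and TWIST1 could not be tested with the filter.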
